A study of Danio rerio with 9 samples.

Results

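Genes of the Notch pathway were followed through 3 sorted cell populations that the study labels as zebrafish notochord sheath. A list of 44 zebrafish symbols for Notch receptors, ligands, fringes, her and hey targets, feedback and trafficking genes and the nuclear complex was matched to the Ensembl gene IDs of the count files, allowing capitals or a missing paralog letter. Of these symbols 38 matched, giving 39 gene IDs out of the 32266 in each file: 4 receptors, 8 ligands, 14 her and hey genes, 3 fringes, 6 feedback and trafficking genes and 4 nuclear genes. The names NOTCH1, NRARP, RBPJ and HES6 each stand for 2 IDs, and the name table does not say which copy carries which paralog letter, so the ID is printed. Values for dla, dld, dlk1, her6, her9 and maml2 are not given under those names, since no ID carried them, and DLD is the symbol of dihydrolipoamide dehydrogenase, not of a Delta ligand. The IDs that the name table calls HES1, HES4 and DLL1 (2 IDs) may be its entries for her6, her9, dla and dld; the matching rule does not reach them, the identity was not settled, and their values stand apart in the closing section. All genes were kept whatever their level, and 37 of the 39 passed the count filter. The ligand-like gene DLK2 reached at most 4 counts in a library, and her12, a hairy-related repressor gene, at most 47, and both were left untested.

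The cells came from fish of strain EK, 13 days after fertilization, which the design describes as transgenic although the genotype label reads wild type. Fluorescence-activated sorting gave col9a2+ cells, col9a2/entpd5a+ cells (double-positive) and entpd5a+ cells, named for the reporters of a collagen IX chain gene and of a phosphate-releasing enzyme gene of mineralizing tissue, with 3 libraries each, from total RNA amplified with an ultra-low-input kit. Whether the libraries of a population came from separate animals, pooled animals or repeated sorts is not given in the labels, and p values therefore measure only the spread between these samples. By its title, the study concerns segmentation of the sheath as a guide for patterning the spine.

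Notch is a receptor at the cell surface that is activated by Delta and Jagged ligands on the neighbouring cell. Ligand binding leads to cleavage of the receptor, and its freed intracellular part enters the nucleus, where it joins the DNA-binding protein RBPJ and a Mastermind coactivator to switch on genes such as the her and hey repressors. In the early zebrafish notochord, Notch signalling from Jagged ligands is known to direct the choice between vacuolated and sheath cells.

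Library totals lay between 39955994 and 81471212 counts, with 17850 to 21996 genes detected. Col9a2+ library 3, double-positive library 3 and entpd5a+ libraries 2 and 3 held more than 60000000 counts and are called deeper here, and the other 5 libraries fewer. The deeper libraries also stood apart in content, with the summed CPM (the read count scaled to library size, with TMM factors) of 9 heat shock genes between 26060 and 36147, against 690 to 2081 in the shallower ones. The sort genes followed the labels: COL9A2 lay at 7734 to 11555 CPM in col9a2+, 810 to 1580 in double-positive and 64.7 to 429 in entpd5a+ libraries, and ENTPD5 at 129 to 452, 10359 to 18675 and 3141 to 5675 CPM. The 12 notochord sheath marker IDs, COL9A2 among them, summed to 46063 to 68406 CPM in col9a2+, 18672 to 36281 CPM in double-positive and 3237 to 4798 CPM in entpd5a+ libraries. In the same order the notochord factor tbxta was at 926 to 2145, 1388 to 4464 and 115 to 804 CPM, and the collagen gene COL2A1 (ENSDARG00000069093) at 28711 to 50490, 1705 to 5142 and 82.2 to 1143 CPM. The 8 osteoblast marker IDs, ENTPD5 among them, ran the other way, with sums of 1289 to 3747, 21034 to 29289 and 54429 to 91698 CPM. Of these, COL10A1 (ENSDARG00000054753) was at 29656 to 64614 CPM, runx2b at 113 to 166 CPM and SP7 at 76.7 to 322 CPM in entpd5a+ libraries, against at most 9.74 CPM of runx2b and 19.8 CPM of SP7 in col9a2+ libraries, while bglap was at no more than 0.225 CPM in any library. In double-positive libraries ENTPD5 itself gave 10359, 18675 and 13081 CPM of sums of 29289, 22979 and 21034 CPM. There runx2b was at 3.82 to 16.3 CPM and SP7 at 12.4 to 43.8 CPM. These 2 genes and spp1 overlapped the col9a2+ libraries, while PANX3 and both COL10A1 IDs lay above them. The entpd5a+ libraries were thus lowest in the summed markers of their label and highest in the summed osteoblast markers. They are called here by the sort gate alone. Single sheath markers differed: both SHH IDs and epyc were also lowest there, but krt8, col8a1a, lamc1 and COL2A1 (ENSDARG00000011407) were not. The markers krt18b and MMEL1 were highest there, at 257 to 484 and 4.12 to 10.6 CPM, against at most 64.6 and 1.90 CPM elsewhere. The part of these markers in the differences of Notch genes between entpd5a+ and the other cells was not tested. The 9 muscle marker IDs summed to 1833 CPM in entpd5a+ library 3, 1226 CPM of it actc1b, against 87.7 to 521 CPM elsewhere. That library also held the highest value of both NRARP copies and of NOTCH1 (ENSDARG00000103554), NOTCH3, LFNG, jag1a, jag1b, jag2b, HEY1, HEY2, her2, her8a, NUMB, numbl and RBPJ (ENSDARG00000003398), and the part of the muscle signal in them was not tested. In entpd5a+ library 1 the 8 pigment marker IDs summed to 62.2 CPM, against 1.83 to 12.2 CPM elsewhere. TYRP1 (ENSDARG00000056151) was at 25.8 and DCT at 17.0 CPM there, but the MITF IDs at 0 and 0.180 CPM. The part of the pigment signal in the Notch genes was not tested. Double-positive library 1 held a sum of 335 CPM over 10 endothelial markers, against 4.73 to 92.3 CPM elsewhere. The 8 epidermis marker IDs summed to 2541.5 to 11592 CPM, most of it krt4 and krt5. In double-positive libraries krt4 was highest, at 5639 to 7855 CPM, against at most 4515 CPM elsewhere. There epcam was lowest, at 6.37 to 27.1 CPM, against 60.8 to 439 CPM elsewhere. The part of the epidermis markers in the Notch genes was not tested.

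**Figure D1:**
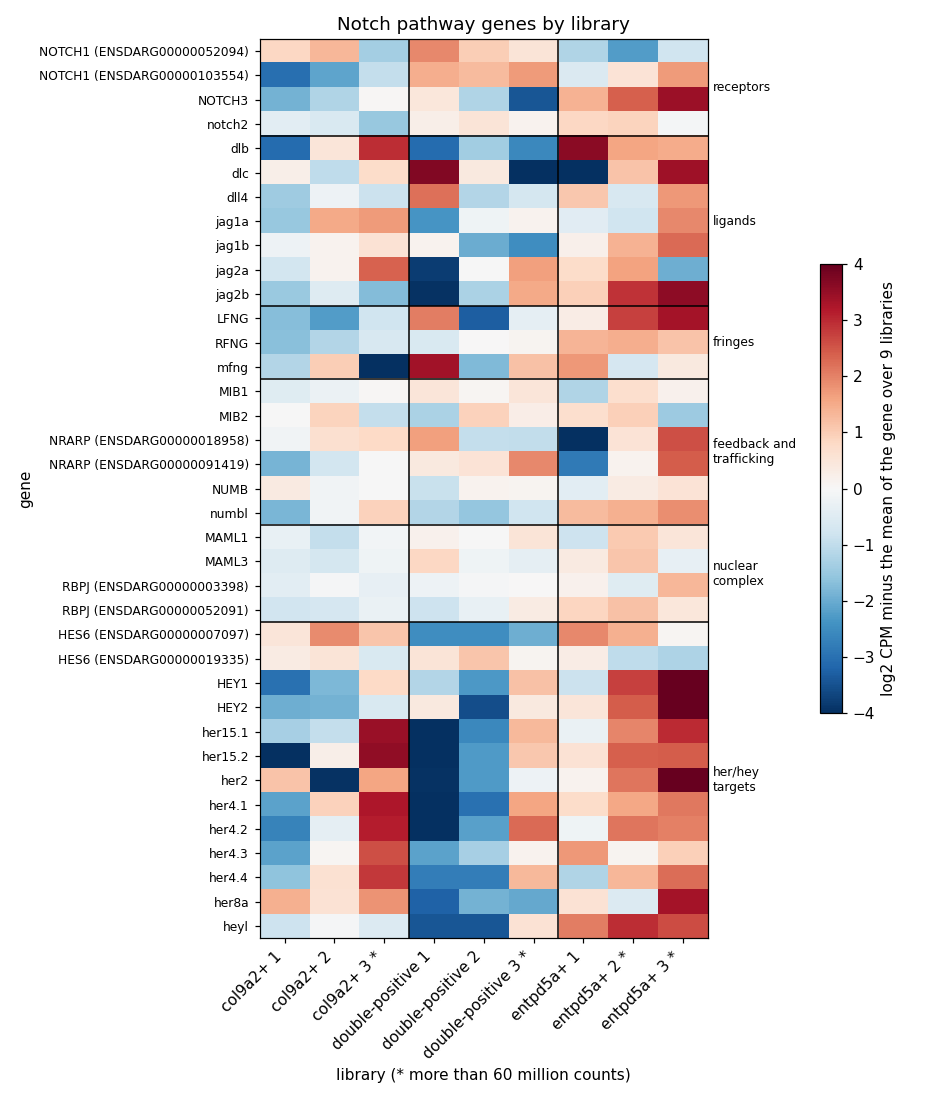
Notch pathway genes (rows, grouped by role) in the 9 libraries (columns, deeper ones starred); colour is log2 CPM minus the gene's mean over the 9 libraries, clipped at 4 in either direction. The her and hey genes are mostly red in the starred columns, with HES6 (ENSDARG00000019335) the other way, and HEY1 and HEY2 are darkest in entpd5a+ library 3.

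Among the receptors, the clearest difference was in one of the NOTCH1 copies, which was 9.68-fold higher in double-positive than in col9a2+ cells. NOTCH1 (ENSDARG00000103554) stood at 1.31, 2.48 and 5.50 CPM in the col9a2+ libraries, 29.6, 25.9 and 34.8 CPM in the double-positive libraries and 7.16, 15.8 and 35.5 CPM in the entpd5a+ libraries. Every double-positive and entpd5a+ library lay above every col9a2+ library, while the entpd5a+ range ran across the double-positive one. The means were 3.10 ± 2.16, 30.1 ± 4.47 and 19.5 ± 14.5 CPM (SD, n = 3 libraries each). Between double-positive and col9a2+ cells the gene rose by 3.28 ± 0.68 on the log2 scale (log2 difference ± standard error, edgeR quasi-likelihood test, Benjamini-Hochberg adjusted p = 0.0296 over the 19039 genes tested). It was the only one of the 37 genes called in that comparison, in which 3.54% of all genes were called and 1.68% were called higher. Here and below, a gene passes or is called by this edgeR test unless DESeq2 is named. DESeq2 called 4 of the 37 in this comparison, this NOTCH1 copy higher and dlb, her8a and HES6 (ENSDARG00000007097) lower, against 10.8% of all genes it gave an adjusted p. With the library-total group (above 60000000 counts or not) as a term in the fit, the rise was 3.52 ± 0.49 (adjusted p = 0.0054). The call was lost without col9a2+ library 1 or 2 or any 1 of the 3 double-positive libraries (adjusted p of 0.0587 to 0.124), and the difference was 3.99 without col9a2+ library 3.

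Between entpd5a+ and col9a2+ cells the same NOTCH1 copy differed by 2.65 ± 0.66, just short of the threshold (adjusted p = 0.0505), and it passed with the library-total term, at 2.23 ± 0.48 (adjusted p = 0.0297). The other copy, NOTCH1 (ENSDARG00000052094), followed another order, with 6.14, 8.64 and 1.31 CPM in col9a2+ libraries, 13.2, 6.84 and 4.997 CPM in double-positive libraries and 1.49, 0.705 and 1.99 CPM in entpd5a+ libraries. Its entpd5a+ libraries all lay below the double-positive ones, and of the col9a2+ libraries only library 3 fell within the entpd5a+ range. The difference between entpd5a+ and double-positive cells was -2.58 ± 0.77 and did not pass (adjusted p = 0.0828). Its highest value fell in double-positive library 1, the library with the endothelial markers, and the part of those markers in it was not tested.

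The receptor gene notch2 stood at 62.5, 54.1 and 29.2 CPM in col9a2+ libraries, 98.2, 118 and 92.1 CPM in double-positive libraries and 147, 154 and 79.0 CPM in entpd5a+ libraries. No col9a2+ library reached the lowest library of either other population. The difference of 1.38 ± 0.38 between entpd5a+ and col9a2+ cells missed the threshold (adjusted p = 0.0720), but with the library-total term notch2 rose by 1.60 ± 0.31 (adjusted p = 0.0206). Double-positive cells differed from col9a2+ cells by 1.08 ± 0.38 (adjusted p = 0.171) and, with that term, by 1.13 ± 0.29 (adjusted p = 0.0563).

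NOTCH3, a receptor best known from mural cells of vessels in mammals, stood at 0.749, 1.22 and 2.95 CPM in col9a2+ libraries, 3.93, 1.22 and 0.236 CPM in double-positive libraries and 7.56, 15.08 and 30.7 CPM in entpd5a+ libraries. The entpd5a+ libraries lay above all the others. Neither the difference from col9a2+ cells, 3.43 ± 1.00 (adjusted p = 0.0903), nor that from double-positive cells, 3.31 ± 1.00 (adjusted p = 0.0868), passed. In bulk libraries such as these, fewer cells of a type and less RNA per cell cannot be told apart.

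**Figure D2:**
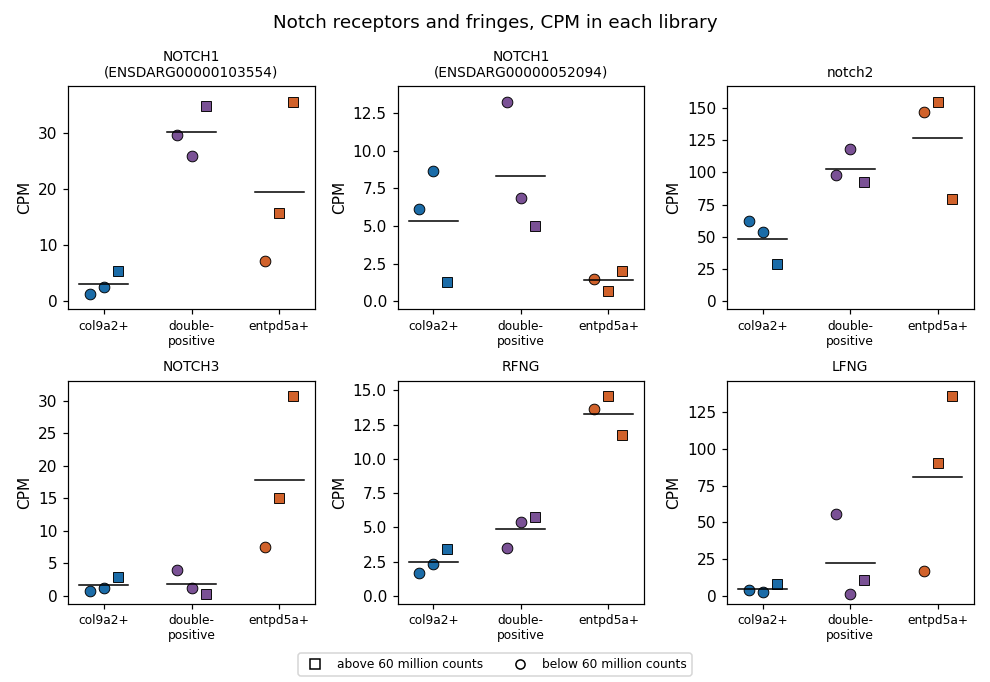
CPM (linear axis from near 0) of 4 receptor genes and the fringes RFNG and LFNG in each library by population; squares are libraries above 60000000 counts, circles the others, and the line is the mean of 3 libraries. RFNG lies at 11.7 to 14.6 CPM in entpd5a+ libraries and at most 5.75 CPM elsewhere, and NOTCH1 (ENSDARG00000103554) is lowest in the col9a2+ libraries.

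Fringes are glycosyltransferases that extend the fucose on the extracellular repeats of Notch and so change which ligands it answers to. RFNG was at 1.65, 2.33 and 3.41 CPM in col9a2+ libraries, 3.51, 5.41 and 5.75 CPM in double-positive libraries and 13.6, 14.6 and 11.7 CPM in entpd5a+ libraries. The 3 populations did not overlap, and entpd5a+ libraries were highest. The means were 2.46 ± 0.887, 4.89 ± 1.21 and 13.3 ± 1.45 CPM (SD, n = 3). From col9a2+ to entpd5a+ cells RFNG rose by 2.43 ± 0.45, or 5.39-fold (adjusted p = 0.0142), the only one of the 37 genes called in that comparison, against 5.02% of all genes tested and 2.68% called higher. DESeq2 called 9 of the 37 there, against 11.7% of all genes: RFNG, LFNG, NOTCH1 (ENSDARG00000103554), notch2, NOTCH3, jag2b, HEY1, HEY2 and RBPJ (ENSDARG00000052091). With the library-total term the rise was 2.36 ± 0.40 (adjusted p = 0.0105). The call was lost without col9a2+ library 1, col9a2+ library 2 or entpd5a+ library 2 (adjusted p = 0.0550, 0.0788 and 0.0601), with log2 differences of 2.21, 2.39 and 2.36. Neither step on the way passed, with 0.99 ± 0.43 for double-positive against col9a2+ (adjusted p = 0.294) and 1.44 ± 0.44 for entpd5a+ against double-positive cells (adjusted p = 0.0865).

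LFNG, the fringe of the segmentation clock in mouse and chick, stood at 4.11, 2.83 and 7.76 CPM in col9a2+ libraries, 55.7, 1.35 and 10.5 CPM in double-positive libraries and 16.7, 90.4 and 136 CPM in entpd5a+ libraries. All entpd5a+ libraries lay above all col9a2+ libraries, and double-positive library 1 stood far above the other libraries of its population. The difference between entpd5a+ and col9a2+ cells was 4.04 ± 1.20 (adjusted p = 0.0972) and did not pass, with or without the library-total term (adjusted p = 0.177 with it). The fringe mfng was low, at 0 to 1.07 CPM in col9a2+ libraries, 5.63, 0.130 and 1.22 CPM in double-positive libraries and 0.312 to 1.80 CPM in entpd5a+ libraries, and no difference of mfng passed the edgeR test. Both fringes were highest within their population in double-positive library 1. There the endothelial genes kdrl and cdh5 stood at 62.0 and 67.3 CPM, but FLT4 at 0.0447 and plvapa at 0.0223 CPM. FLI1, at 65.1 CPM, was no higher there than in entpd5a+ library 2, at 67.0 CPM. The part of the endothelial signal in the 2 fringes was not tested.

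No ligand gene passed the edgeR test between populations, while DESeq2 called jag2b in entpd5a+ against col9a2+ cells, dlb in double-positive against col9a2+ cells, and dlb and jag1b in entpd5a+ against double-positive cells. Jagged ligands are large transmembrane proteins with a cysteine-rich domain that Delta ligands lack. The ligand gene jag1b was at 12.3, 15.5 and 21.4 CPM in col9a2+ libraries, 15.5, 3.56 and 2.51 CPM in double-positive libraries and 16.2, 36.8 and 67.9 CPM in entpd5a+ libraries. The entpd5a+ libraries lay above the double-positive ones and overlapped the col9a2+ ones. Between entpd5a+ and double-positive cells the difference was 2.49 ± 0.74 (adjusted p = 0.0843).

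The gene jag2b was at 0.770, 1.56 and 0.652 CPM in col9a2+ libraries, 0.112, 0.910 and 6.37 CPM in double-positive libraries and 4.39, 16.6 and 27.0 CPM in entpd5a+ libraries. Its entpd5a+ libraries lay above all col9a2+ libraries, and the shallowest of them was lowest. Here the difference was 4.01 ± 1.25 (adjusted p = 0.114). The gene jag1a was at 1.20, 9.98 and 11.4 CPM in col9a2+ libraries, 0.648, 3.04 and 3.85 CPM in double-positive libraries and 2.54, 1.98 and 13.2 CPM in entpd5a+ libraries, and the 3 populations overlapped.

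The remaining ligand genes were low. The Jagged gene jag2a ranged from 0 to 2.46 CPM, and the Delta genes dlb, dlc and dll4 from 0 to 3.51, 0 to 8.72 and 0.770 to 9.88 CPM over the 9 libraries. Both dlc and dll4, the latter a ligand of vessel sprouting, were highest in double-positive library 1. Of the other 2 double-positive libraries, neither exceeded 0.832 CPM for dlc or 1.31 CPM for dll4. The endothelial markers TIE1, ERG and plvapa were each listed at 0 in at least 1 library, TIE1 in double-positive libraries 2 and 3 and entpd5a+ library 2. In the entpd5a+ libraries the endothelial sum of 74.4 to 92.3 CPM came mainly from FLI1, at 48.0 to 67.0 CPM, with kdrl at 0.243 to 3.92 CPM and cdh5 at 0.116 to 1.60 CPM. The part of these markers in the levels of the Notch genes was not tested.

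Among the target genes, HEY1 and HEY2 had their highest mean in entpd5a+ cells, and HEY1 also differed with library total. The means of heyl, her2, her8a and, narrowly, her15.1 and HES6 (ENSDARG00000007097) were also highest there. Entpd5a+ libraries 2 and 3 were deeper, against only library 3 of each other population. HEY1, a repressor induced by Notch, stood at 1.31, 3.00 and 18.3 CPM in col9a2+ libraries, 4.63, 2.13 and 23.6 CPM in double-positive libraries and 5.74, 70.8 and 224 CPM in entpd5a+ libraries. In each population the deeper libraries were highest, and the shallower entpd5a+ library lay below the deeper libraries of the other populations. The difference between entpd5a+ and col9a2+ cells was 3.72 ± 1.42 (adjusted p = 0.204), and 2.44 ± 0.67 with the library-total term (adjusted p = 0.0722).

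HEY2, a related repressor of vessel and heart development, stood at 0.621, 0.645 and 1.62 CPM in col9a2+ libraries, 3.26, 0.182 and 3.29 CPM in double-positive libraries and 3.49, 13.7 and 51.1 CPM in entpd5a+ libraries. The entpd5a+ libraries lay above all others, narrowly in library 1. HEY2 differed among the 3 populations by the F test (adjusted p = 0.0476), which called 3 of the 37 genes, NOTCH1 (ENSDARG00000103554) and RFNG being the other two (adjusted p = 0.0320 and 0.0148), against 9.41% of all genes tested. DESeq2's test over the 3 populations called 15 of the 37, against 19% of all genes. The call of HEY2 did not hold with the library-total term (adjusted p = 0.120), and it was kept only without double-positive library 2 or entpd5a+ library 1 when each library was left out in turn. The call of NOTCH1 was kept without col9a2+ library 3, entpd5a+ library 1 or entpd5a+ library 3, and that of RFNG was lost without col9a2+ library 2 or entpd5a+ library 2 (adjusted p = 0.0567 and 0.0633). Neither pairwise difference of HEY2 passed, at 4.55 ± 1.21 from col9a2+ (adjusted p = 0.0643) and 3.34 ± 1.14 from double-positive cells (adjusted p = 0.127). The third hey gene, heyl, was at 0.171 to 0.323 CPM in col9a2+, 0 to 0.516 CPM in double-positive and 1.49 to 2.80 CPM in entpd5a+ libraries, and no difference of it passed the edgeR test.

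**Figure D3:**
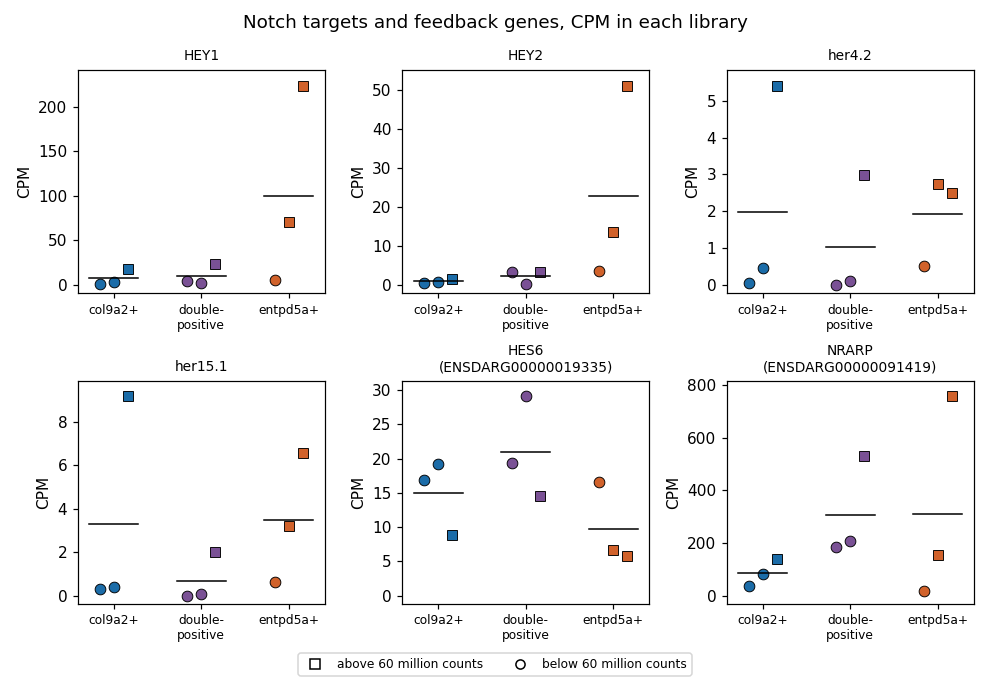
CPM (linear axis from near 0) of 5 her and hey genes and NRARP (ENSDARG00000091419) in each library by population; squares are libraries above 60000000 counts, circles the others, and the line is the mean of 3 libraries. For HEY1, her4.2 and her15.1 every square lies above every circle of all populations, and for HES6 (ENSDARG00000019335) every square lies below every circle.

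The her4 and her15 genes, repressors induced by Notch in the nervous system, form tandem clusters of near-identical copies, so the split of reads among copies is uncertain. Summed counts of her4.1 to her4.4 were 15, 119 and 1602 in col9a2+ libraries, 0, 9 and 470 in double-positive libraries and 127, 568 and 561 in entpd5a+ libraries. For her15.1 and her15.2 together they were 14, 40 and 1349, then 0, 7 and 212, then 63, 521 and 620. Both clusters were highest in col9a2+ library 3, and neither gave a count in double-positive library 1, where the limit that a count of 0 allows (3 counts) is 0.0670 CPM.

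Neural and glial markers were present as well, with a sum over 15 gene IDs of 276 to 345 CPM in col9a2+, 89.0 to 137 CPM in double-positive and 81.2 to 317 CPM in entpd5a+ libraries. The sum was highest in col9a2+ library 1, with 184 CPM of it from STMN1 (ENSDARG00000004169), and lowest in entpd5a+ library 3. In col9a2+ library 3 and double-positive library 1, where the her4 and her15 clusters were highest and lowest, the sum was 276 and 129 CPM. Most single markers were higher in col9a2+ library 3. GFAP stood at 57.2 and 0.0223 CPM, SOX2 at 8.99 and 0.0894 CPM and FABP7 (ENSDARG00000007697) at 111 and 10.6 CPM. Only STMN1 (ENSDARG00000004169), at 31.8 and 80.4 CPM, and ELAVL4, at 0.617 and 3.91 CPM, went the other way. OLIG2 was at 0 in 5 libraries, and the part of the neural markers in the her genes was not tested.

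HES6 (ENSDARG00000019335), a Hes family member that in mouse antagonizes HES1, was at 16.9, 19.1 and 8.93 CPM in col9a2+ libraries, 19.3, 29.1 and 14.5 CPM in double-positive libraries and 16.7, 6.68 and 5.73 CPM in entpd5a+ libraries. The deeper libraries were lowest in each population. The other copy, HES6 (ENSDARG00000007097), had 1 count in the 3 double-positive libraries together, against 0.235 to 0.670 CPM in col9a2+ and 0.167 to 0.698 CPM in entpd5a+ libraries. The hairy-related gene her8a was likewise lowest in double-positive libraries, at 0 to 0.0520 CPM, against 0.447 to 1.098 CPM in col9a2+ and 0.185 to 3.17 CPM in entpd5a+ libraries. Neither passed the edgeR test between populations, with adjusted p values of 0.0997 and 0.176 for double-positive against col9a2+ cells, while DESeq2 called both genes in double-positive cells against either other population. The gene her2 reached 22.1 CPM in entpd5a+ library 3 and at most 2.33 CPM in the other libraries.

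Among the feedback genes, NRARP encodes an ankyrin protein that Notch induces and that promotes loss of the receptor's intracellular part. NRARP (ENSDARG00000091419) stood at 38.4, 84.4 and 139 CPM in col9a2+ libraries, 184, 207 and 532 CPM in double-positive libraries and 19.9, 156 and 756 CPM in entpd5a+ libraries. All double-positive libraries lay above all col9a2+ libraries, and the entpd5a+ libraries held both the lowest and the highest value of all 9. The difference of 1.82 ± 1.03 between double-positive and col9a2+ cells did not pass (adjusted p = 0.444), nor did that of 1.83 ± 1.03 between entpd5a+ and col9a2+ cells (adjusted p = 0.435). The second copy, NRARP (ENSDARG00000018958), ranged from 0.0675 to 10.7 CPM, both ends in entpd5a+ libraries.

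MIB1, a ubiquitin ligase that drives ligand uptake, was at 31.5, 38.2 and 46.4 CPM in col9a2+ libraries, 61.8, 46.9 and 62.1 CPM in double-positive libraries and 19.3, 70.5 and 49.9 CPM in entpd5a+ libraries. NUMB, an adaptor that inhibits Notch, was at 10.3, 7.42 and 8.11 CPM, then 4.31, 8.97 and 8.70 CPM, then 6.06, 10.2 and 11.8 CPM in the same order. Neither gene passed the edgeR test between populations, and the NUMB populations overlapped throughout. Its relative numbl was at 0.878, 2.88 and 6.08 CPM in col9a2+ libraries, 1.39, 1.07 and 1.81 CPM in double-positive libraries and 7.70, 8.46 and 11.5 CPM in entpd5a+ libraries. The entpd5a+ libraries lay above all others. Against double-positive cells numbl differed by 2.69 ± 0.70, at the edge of the threshold (adjusted p = 0.0502), and with the library-total term it rose by 2.43 ± 0.60 (adjusted p = 0.0407). MIB2, a relative of MIB1, stayed at 0.152 to 0.948 CPM in all libraries.

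Of the nuclear complex, RBPJ (ENSDARG00000052091), the DNA-binding partner of Notch, was at 7.92, 8.47 and 11.1 CPM in col9a2+ libraries, 7.64, 11.0 and 16.9 CPM in double-positive libraries and 24.5, 30.3 and 18.6 CPM in entpd5a+ libraries. The entpd5a+ libraries lay above all others, with a difference from col9a2+ cells of 1.42 ± 0.39 (adjusted p = 0.0715) and of 1.30 ± 0.32 with the library-total term (adjusted p = 0.0511). RBPJ (ENSDARG00000003398) was at 21.3, 27.2 and 22.7 CPM, then 24.6, 27.3 and 28.5 CPM, then 31.8, 20.3 and 70.8 CPM in the same order. The populations overlapped and entpd5a+ library 3 stood apart. The coactivator MAML1 was at 8.09, 5.16 and 9.23 CPM in col9a2+ libraries, 11.2, 9.94 and 14.1 CPM in double-positive libraries and 5.63, 20.5 and 13.9 CPM in entpd5a+ libraries, and MAML3 lay between 4.57 and 16.2 CPM over all libraries. No nuclear gene passed the edgeR test between populations, while DESeq2 called RBPJ (ENSDARG00000052091) in entpd5a+ cells against either other population.

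Over the list as a whole, 28 of the 37 genes tested had a positive and 9 a negative log2 difference between entpd5a+ and col9a2+ cells, with a median of 0.95 against 0.02 over all genes. Of all genes, 50.85% were positive. Near-identical her4 and her15 copies are counted singly, although the split of reads among them is uncertain. In 10 of the 37 the 3 entpd5a+ libraries were all above the 3 col9a2+ ones and in none all below, where 24.7% of all genes had no overlap in either direction and 12.4% were higher. By role the medians were 2.01 for 4 receptors, 1.30 for 7 ligands, 2.43 for 3 fringes, 0.06 for 13 her and hey genes, 0.56 for 6 feedback and trafficking genes and 0.89 for 4 nuclear genes. With the library-total term 3 of the 37 rose, RFNG, notch2 and NOTCH1 (ENSDARG00000103554), against 6.52% of all genes (3.28% higher), and the median was 0.71. The count of 1 was 0 without col9a2+ library 1, col9a2+ library 2 or entpd5a+ library 2, and 2 or 3 without each of the 6 other libraries. The share of all genes called in those fits is not given, so these counts are not read as results about the Notch genes.

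Between double-positive and col9a2+ cells 20 genes had a positive and 17 a negative difference, with a median of 0.12 against 0.01 over all genes. Of all genes, 50.54% were positive. The 4 receptors and the 3 fringes were all positive, with medians of 0.86 and 2.20, while 10 of 13 her and hey genes and 4 of 7 ligands were negative, with medians of -1.90 and -0.74. The 10 negative her and hey genes lay near the floor in double-positive library 1, with 0 counts, and in library 2, with at most 4. In double-positive library 3 they ranged from 1 count, for HES6 (ENSDARG00000007097), to 222 counts, for her4.1. HEY1, HEY2 and HES6 (ENSDARG00000019335), with more counts, were positive. The her4 and her15 copies, whose split of reads is uncertain, are counted singly. The difference between roles was not tested, and LFNG and mfng were positive with 55.7 and 5.63 CPM in double-positive library 1, the library with the endothelial markers, but 1.35 and 0.130 CPM in library 2. Libraries did not overlap in 8 genes, 6 higher and 2 lower, against 24.4% of all genes (11.3% higher, 13.1% lower). With the library-total term NOTCH1 (ENSDARG00000103554) was again the only call, against 6.9% of all genes (3.37% higher).

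Between entpd5a+ and double-positive cells 31 genes had a positive and 6 a negative difference, with a median of 1.23 against 0.07 over all genes. Of all genes, 52.77% were positive. By the edgeR test 0 of the 37 passed, against 6.51% of all genes. An unadjusted p under 0.05 was found for 13 of the 37. The share of all genes at that looser threshold was not counted, so no comparison is drawn. DESeq2 called 12, against 15.3% of all genes. The her and hey genes had a median of 2.40, with 12 of 13 positive, and the receptors one of -0.16. Of these 12, all but HEY1 and HEY2 had 0 counts in double-positive library 1 and at most 4 in library 2. In double-positive library 3 the same genes ranged from 1 to 222 counts. The size of their differences thus rests on values near the floor in libraries 1 and 2. The her4 and her15 copies, whose split of reads is uncertain, are again counted singly. Libraries did not overlap in 12 genes, 11 higher and 1 lower in entpd5a+ cells, against 26.1% of all genes (14.3% higher, 11.8% lower). With the library-total term numbl was the only call, against 9.43% of all genes (4.47% higher). The 3 comparisons share libraries pairwise, so their lists are not independent of each other.

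**Figure D4:**
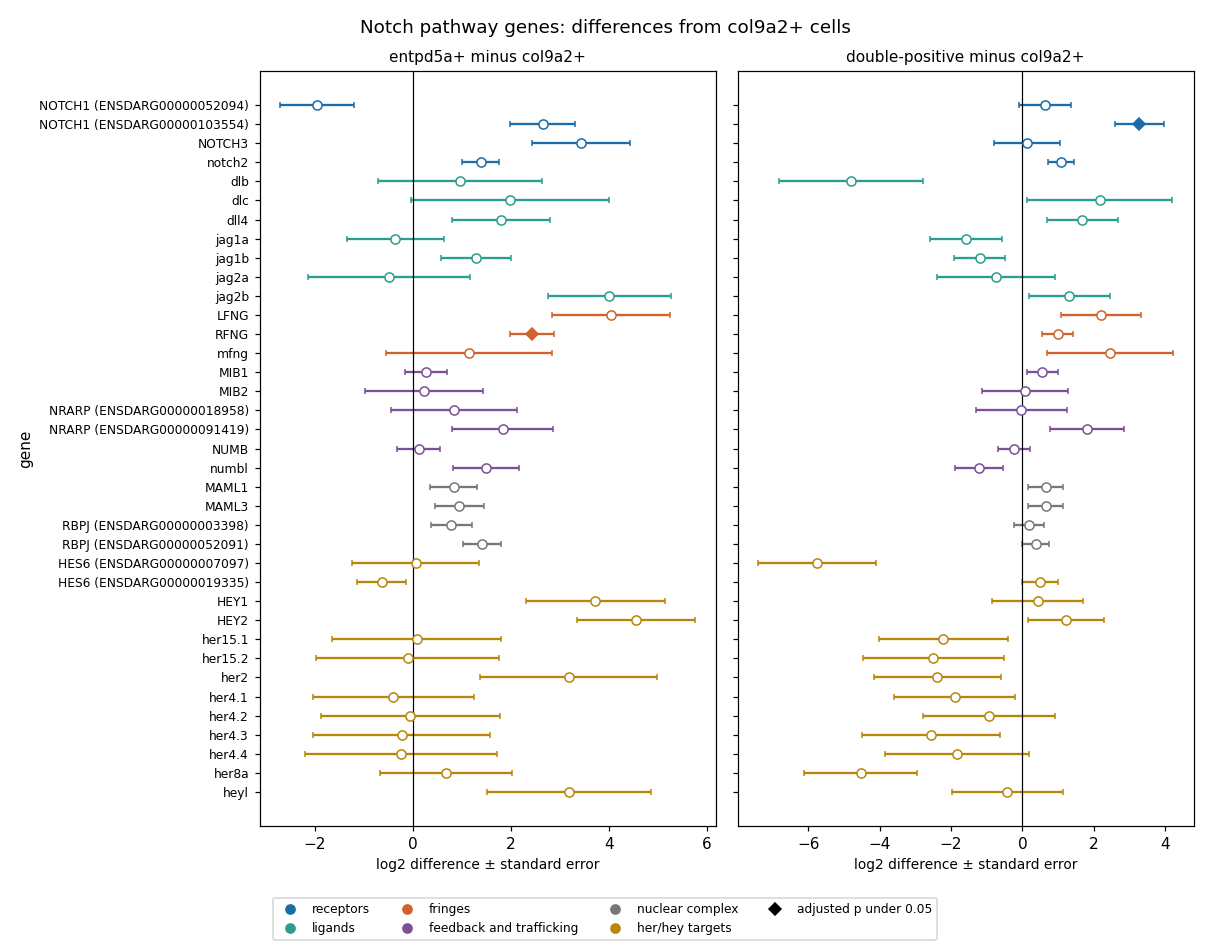
Log2 difference ± standard error of 37 Notch pathway genes from col9a2+ cells, for entpd5a+ (left) and double-positive cells (right), coloured by role; filled diamonds passed an adjusted p of 0.05 and open circles did not. RFNG is the filled gene on the left and NOTCH1 (ENSDARG00000103554) that on the right; the HES6 (ENSDARG00000007097) point on the right rests on 1 count in the double-positive libraries.

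The term for library total asks how the same genes differ between the 4 libraries above 60000000 counts and the 5 others within populations. By the edgeR test 4 of the 37 genes were called, each of them a her or hey gene. HEY1 was higher in the deeper libraries by 3.49 ± 0.55 (adjusted p = 0.00657), her15.1 by 4.22 ± 0.84 (adjusted p = 0.0167) and her4.2 by 4.11 ± 1.08 (adjusted p = 0.0484), and HES6 (ENSDARG00000019335) was lower, at -1.06 ± 0.24 (adjusted p = 0.0276). These 4 of 37 calls stand against 9.74% of all genes tested, 3.52% higher and 6.21% lower. The count lay near that share, and the 4 are single calls that say nothing about the list or the her and hey group. DESeq2 called 10 of the 37, against 21.3% of all genes. The values of her15.1 were 0.300, 0.397 and 9.17 CPM in col9a2+ libraries, 0, 0.104 and 2.00 CPM in double-positive libraries and 0.653, 3.21 and 6.57 CPM in entpd5a+ libraries. For her4.2 they were 0.0642, 0.447 and 5.41 CPM, then 0, 0.104 and 2.98 CPM, then 0.518, 2.73 and 2.49 CPM. In both genes every deeper library lay above every shallower one.

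Of 13 her and hey genes tested, 11 were positive in this comparison, where 54.7% of all genes were positive. Their median was 3.12, and all 37 genes had a median of 0.89, against 0.11 over all genes. The near-identical copies her4.1 to her4.4, her15.1 and her15.2 are counted singly here and below, although the split of reads among them is uncertain. Libraries did not overlap in 7 of the 37, against 13.3% of all genes (5.69% higher, 7.57% lower): HEY1, her15.1, her15.2, her4.1, her4.2 and her4.4 were higher in the deeper libraries and HES6 (ENSDARG00000019335) lower. NRARP (ENSDARG00000091419) differed by 2.20 ± 0.77 and did not pass (adjusted p = 0.116). Receptors, ligands and fringes had medians of 0.03, 0.97 and 0.36, with no calls by the edgeR test, 1 unadjusted p under 0.05 (NOTCH1, ENSDARG00000103554), and calls of that NOTCH1 copy and jag2b by DESeq2. The immediate early genes moved with the same libraries, at a summed 11297 to 24908 CPM in the deeper and 3031 to 7021 CPM in the shallower ones, as did the heat shock genes, and their part in the her and hey differences was not tested.

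HEY1 kept its call without each library in turn. The call of her15.1 was lost without col9a2+ library 3 or double-positive library 3 (adjusted p = 0.139 and 0.103), and its difference was 4.96 without entpd5a+ library 1. The call of her4.2 was kept only without double-positive library 1, with differences of 5.11 without entpd5a+ library 1 and 3.36 without double-positive library 3. The call of HES6 was kept only without double-positive library 1 or entpd5a+ library 3. Replicate number and library total nearly coincide, since all libraries numbered 3 are deeper and all numbered 1 shallower, and with the replicate number as a block 0 of the 37 genes, and 0 genes in all, passed. An interaction of population with library-total group called 0 of the 37 genes, and 0 genes in all, by edgeR in each pair of populations. Unadjusted p values under 0.05 numbered 3, 4 and 6 of the 37, and the share of all genes at that threshold was not counted. No other tool was run on the interaction.

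**Figure D5:**
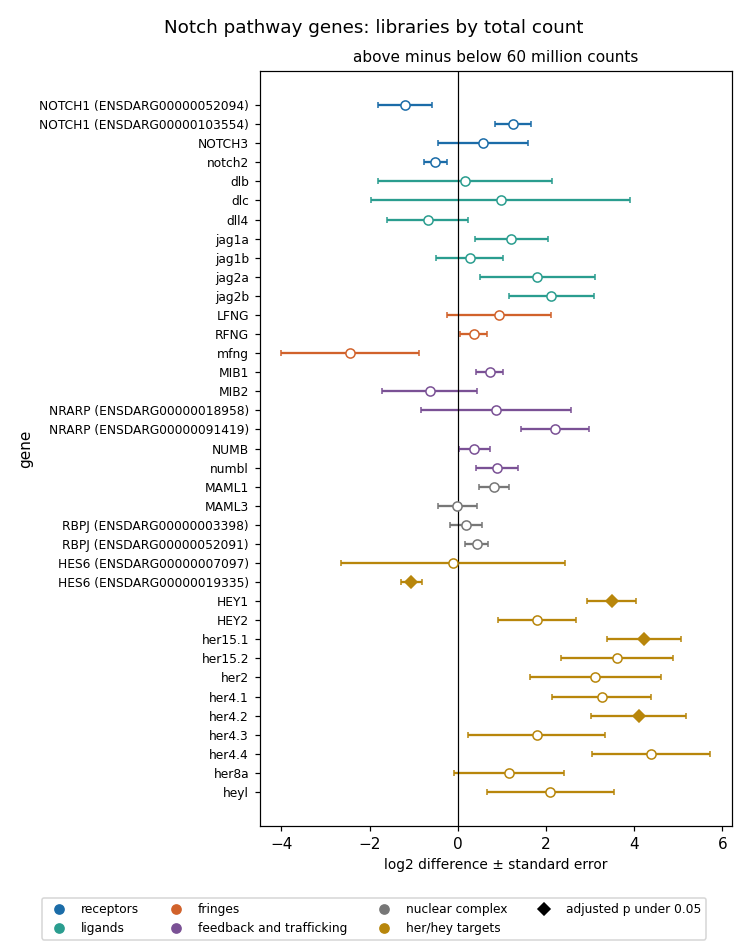
Log2 difference ± standard error of the 37 genes between libraries above and below 60000000 counts, fitted with population as a covariate and coloured by role; filled diamonds passed an adjusted p of 0.05. Filled points lie at HEY1, her15.1 and her4.2 to the right and at HES6 (ENSDARG00000019335) to the left, all in the her and hey group.

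A wider list of 78 further pathway symbols (secretases, ectodomain proteases, receptor glycosylation and processing, ubiquitin and endocytosis genes, nuclear cofactors, other ligands and other her genes) gave 72 gene IDs, of which 65 were tested. Between entpd5a+ and col9a2+ cells 3 rose and 2 fell, with a median of 0.02, where 5.02% of all genes were called. Between double-positive and col9a2+ cells 2 rose and none fell, with a median of 0.28, against 3.54%. Between entpd5a+ and double-positive cells 2 rose and 2 fell, with a median of -0.29, against 6.51%. The F test called 8, against 9.41%, and the library-total term 6, 3 higher and 3 lower in deeper libraries, against 9.74%. Each count lay near the share of all genes, and the genes named next are single calls that say nothing about the list.

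POGLUT2, an enzyme that adds glucose to the extracellular repeats of Notch, was at 28.4, 25.4 and 34.8 CPM in col9a2+ libraries, 32.9, 33.3 and 42.1 CPM in double-positive libraries and 7.83, 10.9 and 8.75 CPM in entpd5a+ libraries. It fell by 1.69 ± 0.30 from col9a2+ (adjusted p = 0.0113) and by 1.98 ± 0.30 from double-positive to entpd5a+ cells (adjusted p = 0.00639), and kept both calls without each library in turn. Between col9a2+ and entpd5a+ cells RFNG was thus called higher and POGLUT2 lower, as single calls whose relation was not tested.

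FURIN (ENSDARG00000070971), named for the protease that cuts Notch on its way to the surface in mammals, was at 8.15, 6.93 and 5.92 CPM in col9a2+ libraries, 27.1, 15.0 and 29.0 CPM in double-positive libraries and 20.0, 34.6 and 25.0 CPM in entpd5a+ libraries. Against col9a2+ cells it rose by 1.92 ± 0.37 in entpd5a+ (adjusted p = 0.0178) and by 1.76 ± 0.37 in double-positive cells (adjusted p = 0.0317). Either call was lost without any 1 of the 3 col9a2+ libraries, the first also without entpd5a+ library 2 and the second without double-positive library 1 or 3, with adjusted p values of at most 0.0892 and 0.121.

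The corepressor gene ctbp2a was at 19.6, 17.8 and 19.7 CPM in col9a2+ libraries, 35.1, 20.0 and 17.2 CPM in double-positive libraries and 76.5, 72.3 and 46.6 CPM in entpd5a+ libraries. The entpd5a+ libraries lay above all others. It rose by 1.77 ± 0.35 against col9a2+ (adjusted p = 0.0198) and by 1.43 ± 0.35 against double-positive cells (adjusted p = 0.0397). The first call was lost without any col9a2+ library or entpd5a+ library 2, and the second was kept only without double-positive library 1 or entpd5a+ library 3.

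The microfibril gene mfap2 was at 112, 44.9 and 116 CPM in col9a2+ libraries, 21.9, 11.0 and 42.6 CPM in double-positive libraries and 348, 243 and 150 CPM in entpd5a+ libraries. It rose by 3.29 ± 0.60 from double-positive to entpd5a+ cells (adjusted p = 0.0125) and kept that call without each library, with a difference of 3.91 without double-positive library 3.

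The clock gene her7 was at 42.0, 56.0 and 315 CPM in col9a2+ libraries, 22.9, 47.8 and 301 CPM in double-positive libraries and 3.87, 30.6 and 67.4 CPM in entpd5a+ libraries. Within every population the deeper libraries were highest, and the fitted difference was 3.14 ± 0.35 (adjusted p = 0.00189). Between entpd5a+ and col9a2+ cells her7 differed by -2.02 ± 1.20 (adjusted p = 0.472), and with the library-total term it fell by 3.15 ± 0.44 (adjusted p = 0.00521).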

How the data were processed

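The submitters' processing notes name HISAT2, HTSeq and the build GRCz10. Versions and the strand setting are not given in the sources used here, so reads of antisense or overlapping genes cannot be told apart. The authors deposited whole-number counts for each Ensembl gene, not normalized. Gene names came from a table naming 26433 of the 32266 IDs.

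Tests were run in edgeR 4.0.16 (R 4.3.3): filterByExpr on population, TMM factors, a robust quasi-likelihood fit of all 9 libraries (common dispersion 0.588), two-sided tests and Benjamini-Hochberg adjustment over 19039 genes, called below 0.05. CPM uses TMM factors. Standard errors are the absolute log2 difference divided by the square root of F. Heatmap values use a prior count of 2. The library-total term groups libraries above 60000000 counts. The limit at a count of 0 is 3 counts and covers counting error only.

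Named genes are those called in any test and the 3 of each role with the highest mean CPM, plus up to 6 called genes of the wider list with the smallest adjusted p. The values of 1 of these are not reported here. Members, lists and tests were chosen with earlier results of these data known. On simulated data for entpd5a+ against col9a2+ (19039 genes, 50 changed per size), the test recovered 4% of 2-fold, 32% of 4-fold, 66% of 8-fold and 84% of 16-fold changes, with 5 false calls of 98. A separate simulation of the library-total test recovered 2%, 36%, 72% and 86% at the same sizes, with 5 false calls of 103. Its spread between libraries came from a fit without the library-total term, so real differences with library total counted as spread. Its rates therefore do not describe that test as run. In both simulations the changed genes were drawn from those with a mean of at least 5 CPM. The simulation of entpd5a+ against col9a2+ held no library-total difference. The rates therefore do not cover lower genes such as her4.2 and her15.1, with means of 1.64 and 2.49 CPM. Alternatives were DESeq2 1.42.0, its size factors, other count filters, each library left out, a replicate block, the library-total term, subsets of libraries, and the fit of 6 libraries.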

Additional observations from a re-analysis of the deposited data

How the results depend on the processing

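Direction was followed only for genes called in a comparison, in the main fit or, for members, with the library-total term. None of these reversed under any alternative run. Members that were not called did change sign. Between entpd5a+ and col9a2+ cells 6 feedback and trafficking genes were positive, and 4 were positive and 2 negative with the library-total term. Of the single-gene values recomputed, 422 kept their side of the threshold, 205 lost a call and 24 gained one. The counts of Notch genes called (entpd5a+ against col9a2+, double-positive against col9a2+, entpd5a+ against double-positive, F test, library total) were 1, 1, 0, 3 and 4. DESeq2 called 9, 4, 12, 15 and 10, against 11.7%, 10.8%, 15.3%, 19% and 21.3% of all genes. With RLE size factors the third count was 1. With no count filter the first was 2, and with genes kept at 10 or more CPM on average also 2, in a fit that holds 11 of the genes and not RFNG. With the library-total term the first was 3 and the third 1. In the 5 shallower libraries the first was 0 and the F test 1, and in the 4 deeper ones the first, the second and the F test were 0, where fewer samples enter. In the 6 libraries of a pair the first was 5 and the third 1. Leaving out 1 library at a time gave 0 to 3, 0 to 1, 0 to 2, 0 to 5 and 1 to 6 calls. Outside the main fit, DESeq2 and the library-total term, the share of all genes called is not given. The counts of those other settings are therefore not read as results about the Notch genes. A lone library left in a population was assumed to vary like the others.

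Deviations of same-numbered libraries from their population means had r across genes from -0.106 to 0.332, negative for number 2 of entpd5a+ with both others. The deviations still held the library-total difference, and of the libraries numbered 2 only that of entpd5a+ is deeper. Pairing and library total therefore cannot be told apart by these values. With the replicate number as a block the counts were 5, 2, 1, 6 and 0, where all libraries numbered 3 are deeper and all numbered 1 shallower. The share of all genes called between populations in that fit is not given, so these counts are not read as results about the Notch genes. With block and library-total term together the second count was 2 and the third 0. The causes of the other shifts were not tested. In both simulations most 2-fold changes were missed.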

Other observations

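Some genes outside the member list were looked at after their values had been seen. They include HES1 and HES4, hairy-related repressors of the same family as the her genes, which may be the name table's entries for her6 and her9. HES1 was at 138, 164 and 771 CPM in col9a2+ libraries, 224, 307 and 1526 CPM in double-positive libraries and 159, 964 and 1025 CPM in entpd5a+ libraries. Within populations it was higher in the libraries above 60000000 counts by 2.504 ± 0.20 on the log2 scale (edgeR quasi-likelihood test, adjusted p = 7.79e-04).

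HES4 was at 222, 281 and 3157 CPM in col9a2+ libraries, 428, 886 and 7468 CPM in double-positive libraries and 249, 2483 and 3278 CPM in entpd5a+ libraries, and was higher in the deeper libraries by 3.56 ± 0.29 (adjusted p = 8.05e-04). In both genes every deeper library lay above every shallower one. No difference of either between populations passed without the library-total term, and with it HES4 was higher in double-positive cells than in col9a2+ cells by 1.34 ± 0.32 (adjusted p = 0.0444) and fell by 1.40 ± 0.34 in entpd5a+ cells against double-positive ones (adjusted p = 0.0354).

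The name DLL1 stands for 2 IDs, which may be dla or dld. DLL1 (ENSDARG00000010791) was at 0.193, 1.22 and 3.88 CPM in col9a2+ libraries, 0.402, 1.69 and 5.45 CPM in double-positive libraries and 3.06, 1.51 and 2.46 CPM in entpd5a+ libraries. DLL1 (ENSDARG00000020219) was at 5.67, 8.39 and 35.6 CPM, then 7.42, 0.494 and 8.03 CPM, then 10.9, 42.8 and 7.16 CPM. The populations overlapped for both, and neither passed the edgeR test between populations or between deeper and shallower libraries.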
